A study of Mus musculus with 12 samples.

Results

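Complement is a set of plasma and cell-surface proteins that mark microbes, immune complexes and dying cells for removal. In the classical pathway the recognition molecule C1q, assembled from the products of C1qa, C1qb and C1qc, activates the proteases C1r and C1s, which cleave C4 and C2; all pathways meet at C3, whose fragments coat targets and call in leukocytes, and end in the membrane attack complex, which contains C7. Most circulating complement is made in the liver, whereas C1q is made mainly by macrophages and related cells, and macrophages clear dead fibres after muscle injury.

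The genes examined were C1qa, C1qb, C1qc, C3, C4b and C7, which encode components, C3ar1 and C5ar1, which encode the receptors for the fragments C3a and C5a, and Serping1, which encodes the C1 inhibitor. They were taken by name, with earlier results of these data known. They are 9 of the 26264 genes in the count files, and all 9 passed the filter on low counts that left 13499 genes for testing. RNA sequencing gave 12 libraries from the tibialis anterior, a fast lower-leg muscle of the mouse: 4 from muscle given matrix gel, 4 from muscle given PBS, the vehicle, and 4 from uninjured muscle. According to the labels the gel was an injection of 50 µl at 6 mg per ml in the left leg, and the right leg received 50 µl of PBS, so side and treatment cannot be told apart. The series describes the gel as extracellular matrix made from tissue. Strain, age, sex, the kind of injury and the collection time were not stated in the labels, and uninjured muscle is read here as coming from other animals than the gel and PBS legs. Library totals were 15626086 to 22182483 counts. The fibre genes Acta1, Ckm and Ttn and 7 others fixed as markers of skeletal muscle summed to 152312 to 233209 CPM (counts scaled to library size) in gel, 228008 to 261215 CPM in PBS and 256079 to 283979 CPM in uninjured libraries. On the first principal component gel library 3 lay at 5.39 and the remaining gel libraries between -91.4 and -67.4, so fold changes of the complement genes called in gel muscle are also given without it.

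C1qa, C1qb and C1qc lie next to each other on chromosome 4, and C1qc lies between the other two, in the RefSeq annotation of GRCm38.p6. RefSeq promoter windows were available for 6 of the 9 genes: C1qb, C1qc, C3, C3ar1, C5ar1 and C7. Shown are the 250 bases before the RefSeq start of C1qb and C1qc, which moved together, of C3ar1, with the largest rise, and of C7, which fell. They were read on the minus strand of GRCm38.p6 (not mm39, the build of the alignment), at chr4:136886201-136886450, chr4:136892915-136893164, chr6:122856158-122856407 and chr15:5063774-5064023. Capitals mark GAGGAA or its reverse complement TTCCTC, the core bound by the ETS factor PU.1 of myeloid cells.
C1qb: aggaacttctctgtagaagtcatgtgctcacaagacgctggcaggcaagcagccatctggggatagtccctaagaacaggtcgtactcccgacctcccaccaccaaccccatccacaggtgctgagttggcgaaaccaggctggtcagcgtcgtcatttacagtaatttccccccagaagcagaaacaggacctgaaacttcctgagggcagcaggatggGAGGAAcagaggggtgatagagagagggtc
C1qc: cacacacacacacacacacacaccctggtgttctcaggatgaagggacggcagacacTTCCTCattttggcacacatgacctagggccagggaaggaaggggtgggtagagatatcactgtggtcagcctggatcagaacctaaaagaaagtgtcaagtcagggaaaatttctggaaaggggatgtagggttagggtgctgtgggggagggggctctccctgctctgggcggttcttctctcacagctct
C3ar1: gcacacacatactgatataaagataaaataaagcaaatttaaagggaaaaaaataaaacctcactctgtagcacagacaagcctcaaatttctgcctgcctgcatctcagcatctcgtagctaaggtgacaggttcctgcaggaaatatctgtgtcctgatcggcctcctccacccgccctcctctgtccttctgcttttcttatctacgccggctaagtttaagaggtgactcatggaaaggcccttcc
C7: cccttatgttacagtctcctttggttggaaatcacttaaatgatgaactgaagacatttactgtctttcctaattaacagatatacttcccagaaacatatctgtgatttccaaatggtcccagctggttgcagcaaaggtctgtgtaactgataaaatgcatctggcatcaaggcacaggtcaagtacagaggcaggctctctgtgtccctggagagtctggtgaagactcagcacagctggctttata

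GAGGAA occurred once each in the C1qb and C1qc windows, at 30 to 25 bases before the start of C1qb and, on the other strand, at 193 to 188 bases before that of C1qc. It was not in the windows of C3, C3ar1, C5ar1 or C7, and 23.3% of the 32851 windows of this length in the table held it. The C7 window held TTCNNNGAA, the STAT motif, which 7.02% of windows held, and the C3 window held TTGCNNAA, the C/EBP motif, which 9.56% held. The ISRE motif (2.98% of windows) was in none of the 6. A loose NF-kappaB-like motif, in 45.8% of windows, was found in those of C1qb, C1qc, C3 and C3ar1, with some of its matches overlapping each other. All motifs were searched on both strands, and a match is a description of letters, not of a bound factor.

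Setting gel against PBS muscle compares the gel with its vehicle. In gel muscle 7 of the 9 complement genes rose: the C1q genes, C3, C4b and both receptors. The largest rise was that of C3ar1, and the C1q genes were 19.2-fold to 28.0-fold higher. C7 and Serping1 did not pass the test. Of all genes tested, 29.8% were called in this comparison, 16.6% higher and 13.2% lower (edgeR adjusted p, threshold 0.05). The gel and PBS libraries did not overlap, with gel higher, for C1qa, C1qb, C1qc, C4b and C3ar1, or 5 of the 9, where 10.4% of all genes were higher and 9.74% lower without overlap. Without gel library 3, 8 of the 9 rose, and the shares of all genes above are those of the fit with all libraries.

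**Figure D1:**
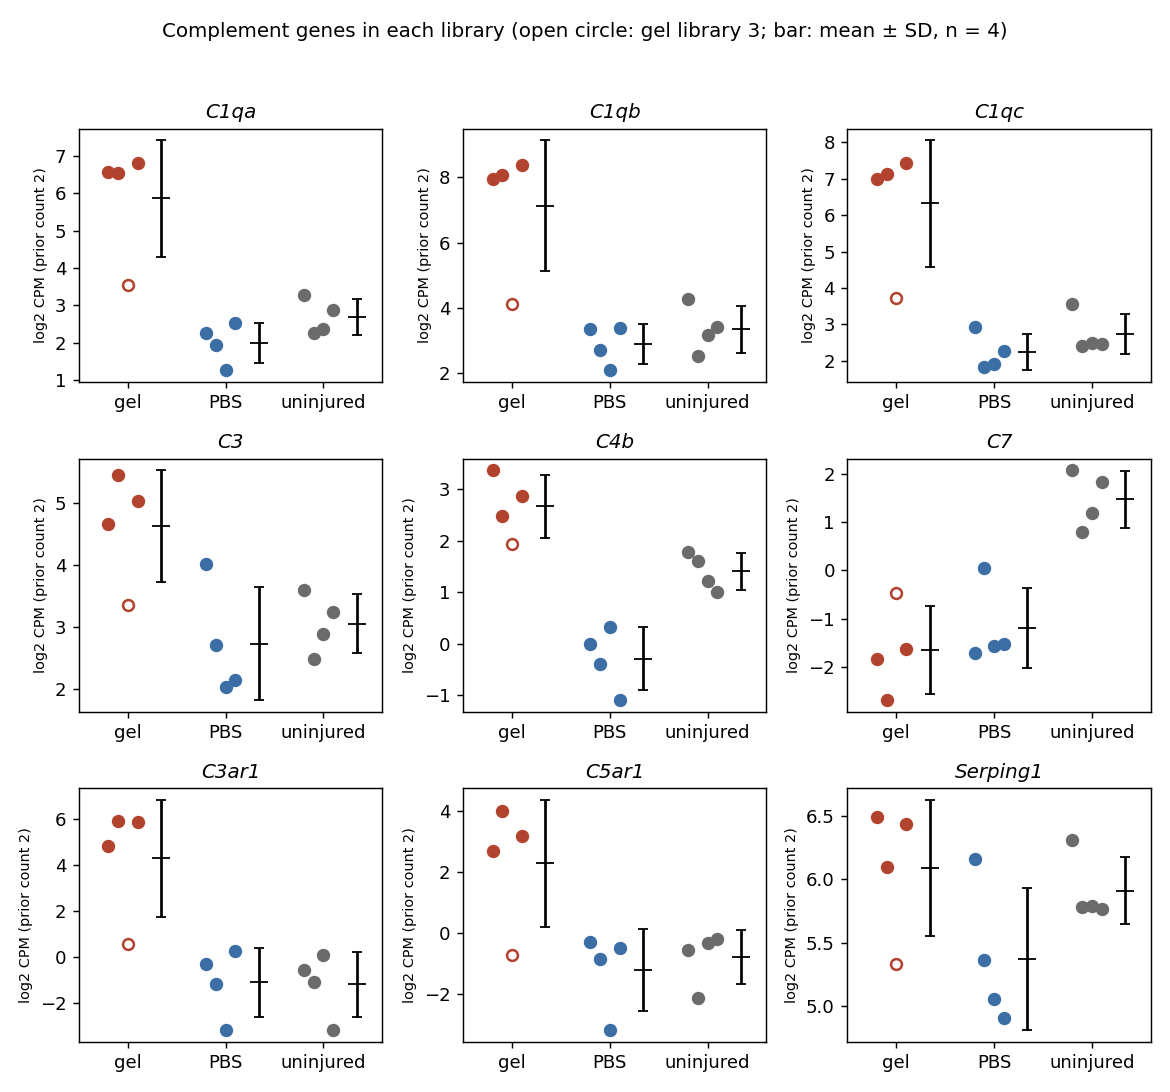
Log2 CPM (prior count 2) of the 9 complement genes in each library, with 1 panel a gene and the gel, PBS and uninjured groups from left to right; the bar beside each group is its mean ± SD (n = 4). Gel library 3 (open circle) lies below the other gel libraries for every gene except C7, and C7 is higher in the uninjured libraries than in all gel and PBS libraries.

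C1qa was at 95.7, 93.4, 11.5 and 111 CPM in gel libraries 1 to 4, against 4.64, 3.70, 2.29 and 5.64 CPM in PBS libraries 1 to 4 and 9.55, 4.68, 5.0 and 7.22 CPM in uninjured libraries 1 to 4. All gel libraries lay above all PBS and uninjured libraries, and gel library 3 was nearer to these than to the other gel libraries. The log2 fold change of gel over PBS was 4.26 ± 0.64 (SE; edgeR adjusted p = 0.00236), and 4.61 ± 0.28 without gel library 3. C1qb was at 247, 267, 17.3 and 335 CPM in gel, against 10.2, 6.42, 4.12 and 10.2 CPM in PBS and 19.0, 5.64, 8.92 and 10.5 CPM in uninjured libraries. Gel library 3 was above every PBS library for C1qb but below uninjured library 1. Its log2 fold change over PBS was 4.81 ± 0.81 (adjusted p = 0.00324), and 5.18 ± 0.43 without gel library 3. C1qc was at 128, 141, 13.2 and 172 CPM in gel, against 7.50, 3.48, 3.66 and 4.68 CPM in PBS and 11.7, 5.16, 5.54 and 5.45 CPM in uninjured libraries. The gel libraries did not overlap with the others for C1qc, and its log2 fold change over PBS was 4.55 ± 0.71 (adjusted p = 0.00261), or 4.90 ± 0.34 without gel library 3.

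The shares of the C1q genes in their summed counts differed between libraries. C1qb made up 52.6%, 53.2%, 41.3% and 54.2% of the C1q counts in gel libraries 1 to 4, against 45.6%, 47.2%, 40.9% and 49.7% in PBS libraries and 47.2%, 36.4%, 45.8% and 45.2% in uninjured libraries. Gel libraries 1, 2 and 4 were above every PBS and uninjured library, and gel library 3 was not. C1qa made up 18.0% to 27.3% in gel, 20.8% to 27.5% in PBS and 23.7% to 31.2% in uninjured libraries. The 95% exact interval of the C1qb share was 37.6% to 45.1% in gel library 3, which had 688 C1q counts, and 53.4% to 54.9% in gel library 4, which had 16958. These intervals cover counting error only and take counts as independent.

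C3, the component on which all pathways converge, was at 25.3, 43.7, 10.1 and 32.9 CPM in gel libraries, against 16.2, 6.47, 4.01 and 4.32 CPM in PBS libraries and 12.1, 5.52, 7.30 and 9.37 CPM in uninjured libraries. The groups overlapped, since gel library 3 lay below PBS library 1 and uninjured library 1. C3 rose by 1.85 ± 0.53 on the log2 scale over PBS (edgeR adjusted p = 0.0239) and was at 2.11 ± 0.48 without gel library 3 and 2.49 without PBS library 1. That call was lost without gel library 2 (adjusted p = 0.0648) or 4 (0.0672), without PBS library 2 (0.0640), 3 (0.0611) or 4 (0.0571), and with the 2 groups alone (0.0584).

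C4b, which encodes complement C4, was at 10.3, 5.49, 3.72 and 7.21 CPM in gel libraries, against 0.888, 0.653, 1.14 and 0.360 CPM in PBS libraries and 3.35, 2.94, 2.23 and 1.90 CPM in uninjured libraries. All gel libraries lay above all uninjured libraries, and these above all PBS libraries. C4b rose by 3.11 ± 0.38 on the log2 scale over PBS (edgeR adjusted p = 0.000813), and by 3.29 ± 0.34 without gel library 3, which was itself at 3.25 times the highest PBS library. Its near-identical neighbour copy C4a had 1 to 12 counts in each library, where C4b had 6 to 198, and how reads were divided between the copies was not stated.

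C3ar1 was at 28.6, 59.8, 1.34 and 57.7 CPM in gel libraries, against 0.691, 0.326, 0 and 1.08 CPM in PBS libraries and 0.568, 0.360, 0.946 and 0 CPM in uninjured libraries. Every gel library was above every other library, gel library 3 by a narrow margin. The group sums were 3374 counts in gel, 38 in PBS and 30 in uninjured muscle, and the log2 fold change over PBS was 6.13 ± 1.15 (edgeR adjusted p = 0.00438), or 6.51 ± 0.63 without gel library 3. C5ar1 was at 6.26, 15.8, 0.488 and 8.81 CPM in gel libraries, against 0.691, 0.435, 0 and 0.600 CPM in PBS libraries and 0.568, 0.12, 0.676 and 0.760 CPM in uninjured libraries. Here gel library 3 lay among the PBS and uninjured libraries. C5ar1 rose by 4.15 ± 0.92 on the log2 scale (adjusted p = 0.00732), by 4.53 ± 0.57 without gel library 3 and by 3.54 without gel library 2. In limma voom the receptors were not called (adjusted p = 0.189 for C3ar1 and 0.106 for C5ar1).

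Serping1 was at 89.9, 68.4, 40.2 and 86.4 CPM in gel libraries, against 71.5, 41.1, 33.1 and 29.9 CPM in PBS libraries and 79.2, 54.9, 55.2 and 54.1 CPM in uninjured libraries. The groups overlapped, with PBS library 1 above gel libraries 2 and 3. Its log2 fold change over PBS was 0.70 ± 0.30 (edgeR adjusted p = 0.0946), and it passed without gel library 3 (0.88 ± 0.27, adjusted p = 0.0240), without PBS library 1 (1.03, adjusted p = 0.0129), with the 2 groups alone and blocked on the library number (0.72 ± 0.21, adjusted p = 0.0348) and in DESeq2 (0.68, adjusted p = 0.0442). C7 was at 0.171, 0.0473, 0.610 and 0.218 CPM in gel libraries and at 0.197, 0.924, 0.229 and 0.240 CPM in PBS libraries, or 20 and 29 counts in all. At this depth a difference between gel and PBS muscle was not detectable for C7 (log2 fold change -0.65 ± 0.69, adjusted p = 0.506), and the sign turned without PBS library 2 (0.17).

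Read by animal, with gel and PBS libraries of the same number taken as the legs of an animal, 8 of the genes were higher in the gel leg in 4 of 4 animals. The share of all genes that did so is not given, so this count has no background beside it. The gel leg of animal 3 was higher by 2.27 for C1qa, 2.04 for C1qb, 1.82 for C1qc, 1.61 for C4b, 1.32 for C3 and 0.28 for Serping1, as differences in log2 CPM. In the other animals the differences were 4.27 to 4.62 for C1qa, 4.59 to 5.36 for C1qb, 4.07 to 5.30 for C1qc, 2.88 to 3.96 for C4b and 0.33 to 1.53 for Serping1. For C3 they were 0.64 in animal 1, below animal 3, and 2.73 and 2.90 in animals 2 and 4. C3ar1 was higher by 3.74 in animal 3 and by 5.16 to 7.11 in the other animals, and C5ar1 by 2.45 and by 2.99 to 4.87. PBS library 3 had 0 counts of C3ar1 and C5ar1, and gel library 3 had 22 and 8. The size of their differences in animal 3 therefore depends on the prior count of 2. C7 was higher in the gel leg in 1 animal, animal 3.

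Gel muscle was then compared with uninjured muscle, which sets the injected and treated leg against intact muscle. The C1q genes, C3, C4b, C3ar1 and C5ar1 rose, 7 of the 9, and C7 fell. Of all genes tested, 25.6% were called, 14.5% higher and 11.1% lower. Groups did not overlap for C1qa, C1qc, C4b and C3ar1, which were higher, and C7, which was lower, where 11.3% and 11.7% of all genes did so. The 2 comparisons share the gel libraries, so their values are given side by side without an overlap test. Log2 fold changes over uninjured muscle were 3.56 ± 0.62 for C1qa, 4.30 ± 0.79 for C1qb, 4.02 ± 0.69 for C1qc, 6.30 ± 1.18 for C3ar1 and 3.88 ± 0.91 for C5ar1 (edgeR adjusted p between 0.00280 and 0.00995). C5ar1 was at 3.26 without gel library 2. Without gel library 3 these genes were at 3.90, 4.67, 4.38, 6.68 and 4.26.

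**Figure D2:**
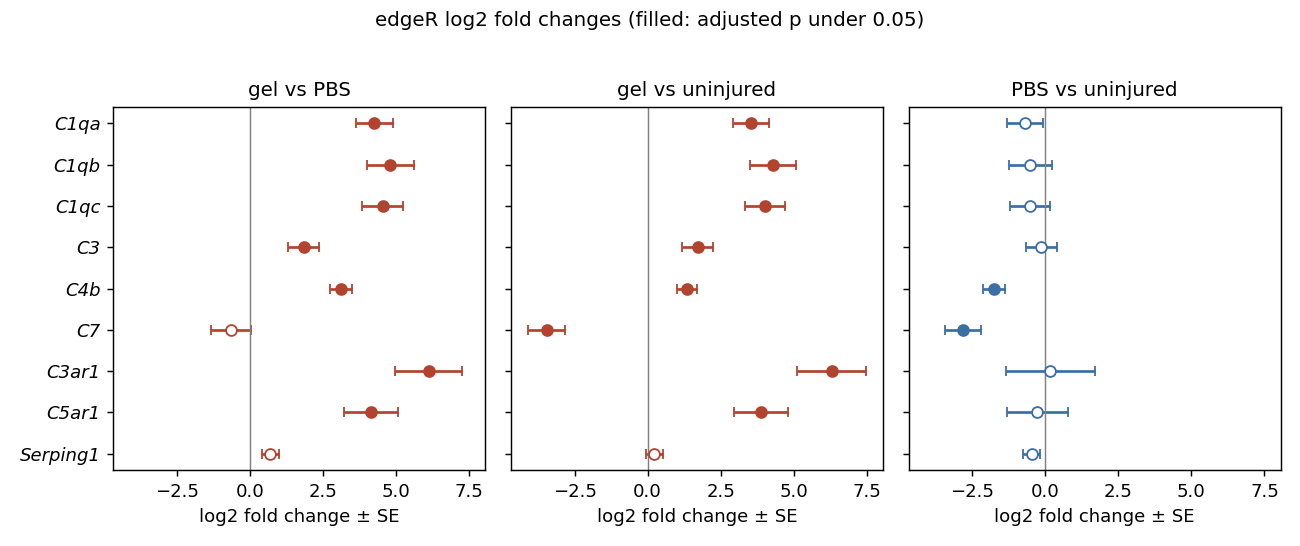
Log2 fold changes ± SE of the 9 complement genes in gel over PBS, gel over uninjured and PBS over uninjured muscle, from edgeR; filled circles passed an adjusted p of 0.05. In both gel comparisons 7 genes lie to the right of 0 and are filled, C7 is filled on the left over uninjured muscle, and C4b and C7 alone are filled in PBS over uninjured muscle.

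C4b rose by 1.35 ± 0.34 on the log2 scale over uninjured muscle (adjusted p = 0.00988; 1.53 without gel library 3). C3 rose by 1.71 ± 0.53 (adjusted p = 0.0359; 1.97 without gel library 3). The C3 call was lost without gel library 1 (0.0613), 2 (0.0969) or 4 (0.0938), without uninjured library 2 (0.0930), 3 (0.0903) or 4 (0.0720), and with no filter on low counts (0.0689). C7 fell to 0.262 ± 0.243 CPM in gel muscle, against 2.82 ± 1.13 CPM in uninjured muscle (SD, n = 4 each), a log2 fold change of -3.46 ± 0.64 (adjusted p = 0.00165), or -4.20 without gel library 3. Serping1 was at 0.23 ± 0.29 (adjusted p = 0.608), and at 0.41 ± 0.27 without gel library 3. In limma voom C3ar1 and C5ar1 were not called over uninjured muscle (adjusted p = 0.226 and 0.134).

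The last comparison set PBS against uninjured muscle. Of the 9 genes, C4b and C7 fell and none rose in edgeR, where 6.17% of all genes were called, 3.39% lower and 2.79% higher. Both also had no overlap between groups, as had 10.2% of all genes on the lower and 10.4% on the higher side. No member had an unadjusted p under 0.05 in the upward direction, and DESeq2 also called 2 of the 9 genes. C7, a part of the membrane attack complex, was at 0.197, 0.924, 0.229 and 0.240 CPM in PBS libraries, against 4.09, 1.62, 2.16 and 3.42 CPM in uninjured libraries. Every PBS library was below every uninjured library, and the group sums were 29 and 185 counts. The log2 fold change was -2.81 ± 0.61 (edgeR adjusted p = 0.0130), and -3.63 without PBS library 2. It no longer passed when PBS library 1 was left out (adjusted p = 0.0577), nor when uninjured library 1 (0.0512) or 4 (0.0549) was. C4b fell to 0.762 ± 0.335 CPM in PBS muscle, against 2.61 ± 0.661 CPM in uninjured muscle (SD, n = 4 each), with no overlap between the groups. Its log2 fold change was -1.76 ± 0.38 (adjusted p = 0.0126), a call lost in limma voom (0.0795).

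The other genes did not pass between PBS and uninjured muscle. C1qa was at -0.70 ± 0.62, C1qb at -0.51 ± 0.75, C1qc at -0.53 ± 0.68, Serping1 at -0.47 ± 0.30, C5ar1 at -0.27 ± 1.04, C3 at -0.14 ± 0.53 and C3ar1 at 0.17 ± 1.52 on the log2 scale (edgeR adjusted p between 0.385 and 0.967). The order of the mean levels was therefore gel, uninjured, PBS for the C1q genes, C3, C5ar1 and Serping1, in which uninjured and PBS muscle did not differ beyond their spread. For Serping1, gel and uninjured muscle did not differ beyond their spread either. For C4b the order was the same and each neighbouring group differed. For C3ar1 it was gel, PBS, uninjured, with no detectable difference between PBS and uninjured muscle. For C7 it was uninjured, PBS, gel, with none between PBS and gel muscle.

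Set on a scale per length, as CPM per kb of exon in the GENCODE annotation of GRCm38, C1qb had the highest level of the 9 genes in gel muscle, at 199, followed by C1qa at 74.9, C1qc at 58.7 and Serping1 at 30.6. In PBS and uninjured muscle Serping1 had the highest level, at 18.9 and 26.2 CPM per kb, above C1qb at 7.10 and 10.1. C3ar1 was at 8.56 CPM per kb in gel muscle, against 0.122 in PBS and 0.109 in uninjured muscle, and C3 at 5.44, against 1.51 and 1.66. C7 was the lowest of the 9 in gel muscle, at 0.0978 CPM per kb, against 0.149 in PBS and 1.06 in uninjured muscle. In that annotation no exon of another gene overlapped the exons of any of the 9 genes.

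The other genes of the cascade were taken from a list of 47, also chosen with earlier results of these data known. Of these, 41 had a count in at least 1 library and 23 passed the filter. In gel over PBS muscle 7 of the 23 rose and 1 fell, where 16.6% and 13.2% of all genes did, with a median log2 fold change of 0.40 beside 0.04 over all genes tested. Without gel library 3, 11 of 24 tested rose and 2 fell, and in limma voom 4 rose and 1 fell. The shares of all genes are those of the edgeR fit with all libraries, and those of the other fits are not given. The alternative pathway amplifies C3 cleavage, and its genes Cfp (properdin, which stabilises the convertase) and Cfb (the convertase protease) rose by 3.37 ± 0.61 and 2.26 ± 0.51 on the log2 scale (edgeR adjusted p = 0.00401 and 0.00661), and by 3.73 and 2.51 without gel library 3. Cfp was at 79.9, 121, 9.40 and 126 CPM in gel libraries, against 7.23 to 9.78 CPM in PBS libraries. With the 2 groups alone and blocked on the library number, Cfp did not pass (adjusted p = 0.0691). Cfd, the gene of factor D, which cleaves factor B, was at 1.11 ± 0.51 (adjusted p = 0.111).

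**Figure D3:**
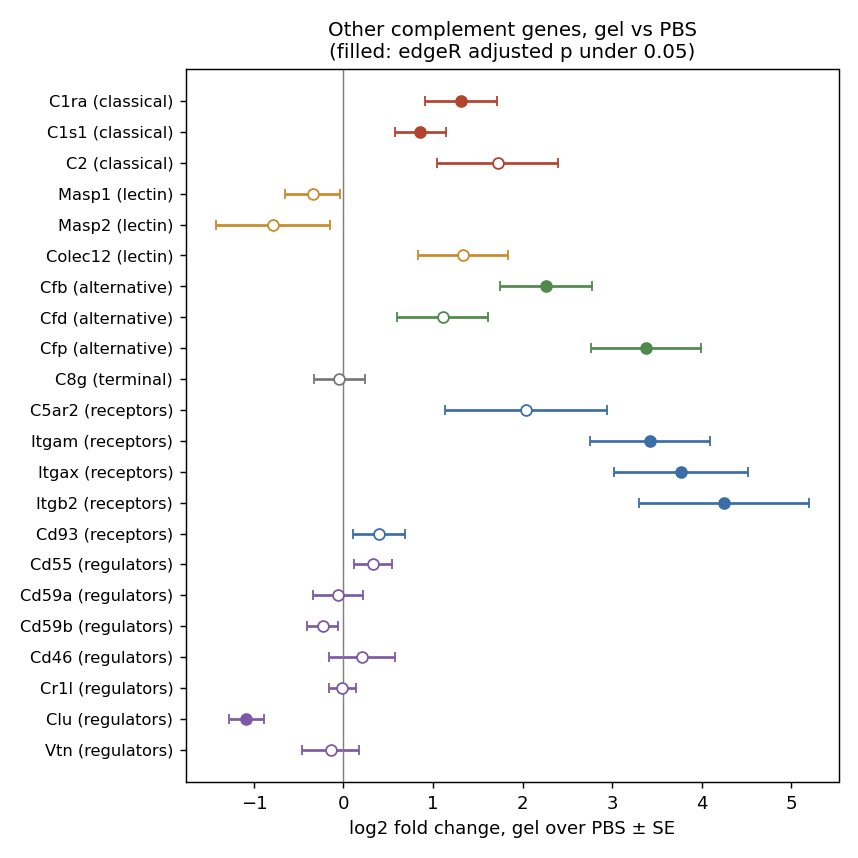
Log2 fold changes ± SE in gel over PBS muscle of tested complement genes other than the 9 members, coloured and ordered by role; filled circles passed an edgeR adjusted p of 0.05. Properdin, factor B, both C1 proteases and the integrin chains of complement receptors lie to the right of 0, and of the regulators only Clu is filled, on the left.

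C1ra and C1s1, the genes of the C1 proteases, rose by 1.31 ± 0.40 and 0.86 ± 0.29 on the log2 scale over PBS (edgeR adjusted p = 0.0270 and 0.0394), and by 1.59 and 1.09 without gel library 3. The C1ra call was lost without gel library 1 (0.0612), 2 (0.0613) or 4 (0.0912), without PBS library 3 (0.0735) or 4 (0.0639), with no filter (0.0588), with the 2 groups alone (0.0662) and with these blocked on the library number (0.10). The C1s1 call was lost without gel library 1 (0.0948), 2 (0.0884) or 4 (0.132), without PBS library 2 (0.0686), 3 (0.104) or 4 (0.0883), without uninjured library 1 (0.0509), 3 (0.0539) or 4 (0.0537), with no filter (0.0757), with the 2 groups alone (0.0846) and in limma voom (0.0636). C2, the gene of the protease that C1s cleaves, was at 1.72 ± 0.68 (adjusted p = 0.0688) and passed without gel library 3 (2.09 ± 0.46, adjusted p = 0.00146). Itgam, Itgax and Itgb2, which encode the integrin chains of complement receptors for C3 fragments, rose by 3.42 ± 0.67, 3.76 ± 0.75 and 4.25 ± 0.95 (adjusted p between 0.00426 and 0.00892), and in limma voom Itgax and Itgb2 were not called (0.0510 and 0.133). Without gel library 3 these genes were at 3.75, 4.12 and 4.63. These integrins are leukocyte genes in general.

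Of the regulators, which protect host cells, 8 were tested over PBS. Of these, 1 fell and none rose in edgeR, where 13.2% of all genes tested fell and 16.6% rose, so the count of falls was near that share. None had an unadjusted p under 0.05 in the upward direction. Cd55 and Cr1l, which limit the convertases at the cell surface, were at 0.33 ± 0.21 and -0.01 ± 0.16, and Cd59a, which blocks the membrane attack complex, was at -0.06 ± 0.28 (adjusted p between 0.257 and 0.965). Without gel library 3 Cd59a passed as lower (-0.46 ± 0.18, edgeR adjusted p = 0.0471), and Cd55 and Cr1l did not pass (0.444 and 0.589). With all libraries the regulator that fell was Clu, which encodes clusterin, a secreted chaperone that binds terminal components. Clu was at 32.3, 29.0, 48.6 and 22.4 CPM in gel libraries, against 64.9, 73.5, 77.7 and 63.5 CPM in PBS libraries, without overlap, and fell by 1.08 ± 0.19 on the log2 scale (adjusted p = 0.00228), or by 1.34 without gel library 3. Over uninjured muscle Cd55 rose by 1.02 ± 0.22 (adjusted p = 0.00416) and Clu fell by 0.70 ± 0.19 (adjusted p = 0.0151), a call lost without uninjured library 2 (0.0537). Without gel library 3 Cd55 was at 0.93 and Clu at -0.96. In PBS over uninjured muscle Cd55 was at 0.69 ± 0.21 and did not pass (edgeR adjusted p = 0.0723). Every PBS library was above every uninjured library for Cd55, as for 10.4% of all genes.

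Of the terminal components other than C7, C8g was measured in every library and the others were near the limit of detection. Over all 12 libraries together Hc, the gene of C5, had 8 counts, C6 and C9 had 4 each, and C8a and C8b had 0, so that nothing can be said of differences between groups for them. C8g was at 2.11 ± 0.421 CPM in gel, 2.18 ± 0.215 CPM in PBS and 1.65 ± 0.338 CPM in uninjured muscle (SD, n = 4 each) and did not pass (gel over PBS -0.04 ± 0.28, adjusted p = 0.922). The lectin pathway genes Mbl1, Fcnb and Colec10 had 0 counts, and 3 genes on the lectin list were tested. Masp1 and Masp2, protease genes of that pathway, were at -0.35 ± 0.31 and -0.79 ± 0.64 in gel over PBS (edgeR adjusted p = 0.419 and 0.371). Colec12 was at 1.34 ± 0.51 over PBS (adjusted p = 0.0617) and 1.18 ± 0.51 over uninjured muscle (adjusted p = 0.102). Without gel library 3 Colec12 passed in both comparisons (1.66 and 1.51, adjusted p = 0.000496 and 0.00125).

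In gel over uninjured muscle 7 of the 23 other complement genes rose and 1 fell, where 14.5% and 11.1% of all genes did in the same fit. Without gel library 3, 11 of 24 tested rose and 1 fell, and in limma voom 4 rose and 1 fell, with no share of all genes given for these fits. C5ar2, the second C5a receptor gene, rose by 4.41 ± 1.16 on the log2 scale (edgeR adjusted p = 0.0131; 0.0987 in limma voom; 4.80 without gel library 3), with 132 counts in gel and 4 counts in uninjured muscle over all libraries of each group. In PBS over uninjured muscle 0 of the 23 passed in edgeR with all libraries in 1 fit. In other fits 2 rose in DESeq2, 3 with the 2 groups alone, 4 with these and the replicate block, 2 without gel library 1 and 1 without gel library 3, and at an unadjusted p under 0.05 there were 2 higher and 0 lower.

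Most macrophage markers and, at lower levels, the summed markers of dendritic cells and of T and NK cells moved with the C1q genes. Of 17 macrophage and monocyte markers 16 were tested and 13 rose in gel over PBS muscle, where 16.6% of all genes rose. In gel over uninjured muscle 12 rose, where 14.5% of all genes did, and none fell. In PBS over uninjured muscle none passed in edgeR, with 1 lower at an unadjusted p under 0.05. Itgam is on both lists. Their summed level was 68.6 to 1254 CPM in gel libraries, against 24.8 to 49.6 CPM in PBS and 36.1 to 55.5 CPM in uninjured libraries, with gel library 3 at the low end. Csf1r, the receptor gene that defines the lineage, was at 59.9, 78.5, 6.72 and 87.9 CPM in gel libraries, against 3.32 to 5.40 CPM in PBS and 3.72 to 9.04 CPM in uninjured libraries. Dendritic cell markers summed to 2.75 to 21.4 CPM in gel, 2.00 to 6.06 CPM in PBS and 1.68 to 2.44 CPM in uninjured libraries, and 1 of the 3 tested rose over PBS. That gene, Itgax, is also on the complement receptor list. It averaged 10.4 CPM in gel muscle, where the dendritic sum averaged 14.8 CPM. Of the B and mast cell markers, 3 and 4 were tested and 0 rose over PBS. T and NK cell markers, none of them tested, summed to 0.855 to 13.0 CPM in gel, 0.109 to 0.840 CPM in PBS and 0.253 to 0.946 CPM in uninjured libraries. Gel library 3 was lowest of the gel libraries for the dendritic and for the T and NK cell sums. Most of the latter in gel was Cd4 and Nkg7, at means of 5.89 and 2.27 CPM. Cd3g, Cd8a and Klrb1c had 21, 20 and 38 counts in gel, against 2 each in PBS muscle. Cd3e had 9 counts in gel, 10 in PBS and 13 in uninjured muscle. In bulk muscle, more cells of a type and more RNA per cell cannot be told apart.

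**Figure D4:**
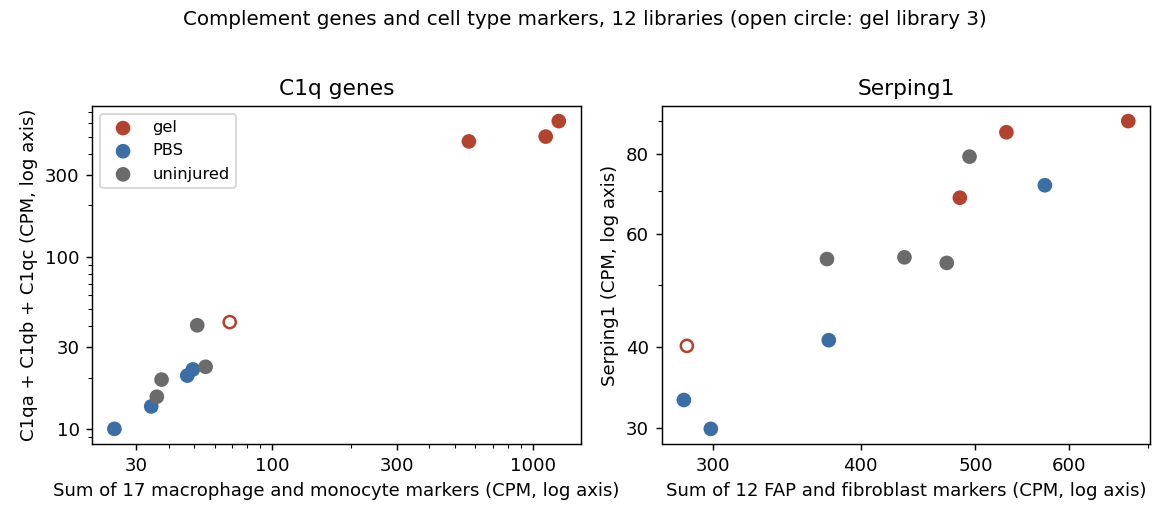
Left, summed CPM of C1qa, C1qb and C1qc against the summed CPM of 17 macrophage and monocyte markers; right, Serping1 CPM against the summed CPM of 12 fibro-adipogenic progenitor (FAP) and fibroblast markers; each point is 1 of 12 libraries and all axes are logarithmic. Gel libraries 1, 2 and 4 lie apart at the upper right on the left panel, gel library 3 (open) lies near the uninjured libraries, and on the right panel gel, PBS and uninjured libraries intermix.

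Per CPM of the summed macrophage markers, the C1q genes together had 0.830, 0.450, 0.612 and 0.492 CPM in gel libraries 1 to 4, against 0.396 to 0.450 CPM in PBS and 0.417 to 0.781 CPM in uninjured libraries. Gel libraries 1, 3 and 4 were above every PBS library, and gel library 2 lay just below the highest PBS library. Uninjured library 1, at 0.781, was above gel libraries 2, 3 and 4, and the other uninjured libraries were at 0.417 to 0.518. The C1q sum itself was 42.0 to 617 CPM in gel, 10.1 to 22.3 CPM in PBS and 15.5 to 40.2 CPM in uninjured libraries. Per 100 CPM of those markers C3ar1 was at 1.96 to 5.36 CPM in gel, 0 to 2.29 CPM in PBS and 0 to 2.52 CPM in uninjured libraries, and C5ar1 at 0.703 to 1.41 CPM in gel, 0 to 1.39 CPM in PBS and 0.333 to 1.80 CPM in uninjured libraries. These ratios are descriptions of 4 libraries a group, and the part of the macrophage, dendritic, T and NK cell marker levels in the rises was not tested.

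The sum of FAP and fibroblast markers varied less. Of 12, 3 rose and 9 did not pass in gel over PBS, where 16.6% of all genes rose. In PBS over uninjured muscle Ly6a fell (-1.38 ± 0.18, edgeR adjusted p = 0.000475) and the others did not pass. In gel over uninjured muscle Ly6a also fell (-0.85 ± 0.18, adjusted p = 0.00330), and 2 others rose. The 12 markers summed to 285 to 674 CPM in gel, 283 to 573 CPM in PBS and 374 to 494 CPM in uninjured libraries. Per 100 CPM of these markers Serping1 was at 13.3 to 16.3 CPM in gel, 10.01 to 12.5 CPM in PBS and 11.4 to 16.0 CPM in uninjured libraries. C4b on the same scale was at 1.13 to 1.52 CPM in gel, 0.121 to 0.404 CPM in PBS and 0.402 to 0.785 CPM in uninjured libraries, and C3 at 3.56 to 9.0 CPM in gel, 1.41 to 2.83 CPM in PBS and 1.47 to 2.44 CPM in uninjured libraries. On this scale every gel library was above all PBS and uninjured libraries for C4b and for C3, and C3 had overlapped in CPM. For Serping1 every gel library was above all PBS libraries but not above all uninjured libraries. The share of all genes without overlap on this scale is not given. Per 100 CPM of the macrophage markers, C3 was at 2.62 to 14.8 CPM in gel libraries. It was at 9.16 to 32.7 CPM in PBS and 15.3 to 23.4 CPM in uninjured libraries, the latter all above gel. C4b on that scale was at 0.491 to 5.43 in gel, 0.763 to 4.62 in PBS and 3.42 to 8.15 in uninjured libraries.

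Tendon markers moved with C7 between PBS and uninjured muscle: 3 of 4 fell, where 3.39% of all genes did. Their sum was 75.1 to 125 CPM in PBS and 181 to 238 CPM in uninjured libraries, with 96.0 to 134 CPM in gel libraries. Their part in the fall of C7 was not tested. Markers of neutrophils, which also carry C5ar1, summed to 18.8, 28.7, 1.28 and 23.6 CPM in gel libraries 1 to 4, against 1.31 to 2.17 CPM in PBS and 1.25 to 2.53 CPM in uninjured libraries. Most of the gel sum was Csf3r, at 17.8, 21.8, 0.855 and 21.3 CPM, while Ly6g had 0 counts in every library and S100a8 had 0 to 24 counts in gel, 0 to 6 in PBS and 0 to 8 in uninjured libraries. Mmp8 had 3 to 96 counts in gel, 0 to 7 in PBS and 0 to 4 in uninjured libraries. Csf3r, the only neutrophil marker tested, rose by 3.78 ± 0.74 on the log2 scale in gel over PBS muscle (edgeR adjusted p = 0.00461), and the part of these markers in the rise of C5ar1 was not tested. Hepatocyte markers were near 0 except in gel library 1, where Alb had 48 counts and all 4 markers were present. Without that library C4b was at 2.83 and C3 at 1.89 in gel over PBS (adjusted p = 0.00106 and 0.0454).

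The genes most like each member over the 12 libraries, by Pearson correlation of log2 CPM among 12305 other genes, differed between the members. For C1qa, C1qb and C1qc together they were Apoe, the apolipoprotein gene (r = 0.993), Trem2, a lipid-sensing receptor gene (0.990), Csf1r (0.989), Tyrobp, the Trem2 adaptor gene (0.988), and Fcer1g, an Fc receptor subunit gene (0.987). For C3ar1 the first was Clec7a, the gene of the beta-glucan receptor Dectin-1 (r = 0.982), and for C5ar1 it was G6pdx (0.974). For C3 they were P3h3, which encodes a collagen prolyl hydroxylase (0.973), the receptor kinase gene Axl (0.970) and Emilin2, a matrix glycoprotein gene (0.967). For Serping1 they were Svep1, which encodes a large secreted adhesion protein (0.976), Ptpn13 (0.957) and Serpinf1, a secreted serpin gene (0.954). For C4b the first were Ppp1r21 and Atox1 (r = 0.932 each), and for C7 Angptl7, an angiopoietin-like factor gene (0.954), Ddx46 (0.924) and the transcription factor gene Zbtb16 (0.923). Zbtb16 averaged 24.1 CPM in gel, 35.2 CPM in PBS and 154 CPM in uninjured muscle, the order of C7. These correlations rest on 12 libraries in 3 groups, which share the differences between groups, and are descriptions.

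Among the members the correlation of log2 CPM over the 12 libraries was 0.994 for C1qa with C1qb, 0.988 for C1qa with C1qc and 0.992 for C1qb with C1qc. In the 8 PBS and uninjured libraries alone it was 0.92 for C1qa with C1qb, 0.77 for C1qa with C1qc and 0.85 for C1qb with C1qc. There C3 went with Serping1 at 0.89 and C7 with C4b at 0.79, while C4b with C3ar1 was at -0.16. Over all 12 libraries C7 with C1qb was at -0.51.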

How the data were processed

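RNA was extracted and libraries were made by BGI, per the labels' protocols. STAR, edgeR and the build mm39 are named, without versions, per the submitters' processing notes; the counting program, annotation and strand setting were not stated. Deposited were raw read counts per gene, 1 file a library, with STAR alignments named per the file headers. Between 81.4% and 90.8% of the values from 2 to 9 in each library were even, so counts may not be independent reads and counting intervals may be too narrow.

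Genes were filtered with filterByExpr, scaled by TMM and tested with edgeR 4.0.16 (quasi-likelihood, robust) in R 4.3.3, with all 12 libraries in 1 fit (9 residual degrees of freedom) and Benjamini-Hochberg adjustment over 13499 genes. CPM use TMM library sizes, log2 CPM a prior count of 2, and the SE is the log2 fold change over the root of F. The fit was tested on simulated data. Alternatives were DESeq2 1.42.0, limma 3.58.1 voom, DESeq2-type size factors, other filters, each pair of groups alone, a replicate block within each pair of groups, leaving out each library and, chosen after seeing the data, halved counts.

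The members, the other complement genes and the marker lists were chosen with earlier results of these data known. Named by rule were all members, the 3 genes most correlated with each (5 for the C1q mean), and any gene of those lists. Gel and PBS libraries of the same number were taken as legs of 1 animal from the protocol and the deposited names. Their deviations from the group means correlated at 0.14, -0.06, 0.31 and 0.08. Gel and PBS libraries of unlike number correlated at -0.27 to 0.20. Gel libraries 1, 2 and 4 each correlated more with a PBS library of another number (0.18, 0.11 and 0.20), so these values do not establish the pairing. Nothing states that replicates within a group are separate animals beyond these numbers, and p-values measure the spread between these samples. Promoter windows and exon lengths came from RefSeq GRCm38.p6 and GENCODE M21. The list counts cover 1 gene whose own values are not reported here.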

Additional observations from a re-analysis of the deposited data

Results flagged for a closer look

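Of 27 groups of 4 libraries examined (9 genes in 3 groups), 3 had a library far from the others, where chance gives about 1 in 20. For C1qc, uninjured library 1 was at 11.7 CPM with the next at 5.54 CPM, a gap of 0.941 of the group's range. For Serping1, the same uninjured library was at 79.2 CPM with the next at 55.2 CPM, a gap of 0.956 of the range. For C7, PBS library 2 was at 0.924 CPM with the next at 0.240 CPM, a gap of 0.941 of the range.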

How the results depend on the processing

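Genes called in gel over PBS numbered 4022, 2559 with the 2 groups alone, and 2456 to 5962 when 1 library was left out. In gel over uninjured muscle they numbered 3449, and 2275 to 5341 when 1 library was left out. In PBS over uninjured muscle they numbered 833, 1417 in DESeq2, 2339 with the 2 groups alone, 2539 with these and the replicate block, and 378 to 1693 when 1 library was left out. Complement genes called in PBS over uninjured muscle numbered 2, 1 in limma voom, 4 with the replicate block on the 2 groups alone (2 without the block) and 1 to 2 when 1 library was left out; in gel over PBS they numbered 6 to 8 and in gel over uninjured muscle 7 to 8 when 1 library was left out. Log2 fold changes of uncalled genes ran, over the fits leaving out 1 library, from -1.39 to 0.17 for C7 in gel over PBS, and in PBS over uninjured muscle from -0.79 to 0.08 for C3, -0.39 to 0.71 for C3ar1 and -0.61 to 0.13 for C5ar1. Signs turned for C7 in gel over PBS without PBS library 2 (0.17). In PBS over uninjured muscle, where none of these was called, they turned for C3ar1 without PBS library 1 (-0.01), PBS library 4 (-0.39) or uninjured library 4 (-0.23), for C3 without PBS library 3 (0.078), PBS library 4 (0.06) or uninjured library 1 (0.08), and for C5ar1 without PBS library 3 (0.13). Every fit with the replicate block also leaves out the third group. In it C1qa (-0.70, adjusted p = 0.0306; 0.0939 with the 2 groups alone) and Serping1 (-0.53, adjusted p = 0.00465; 0.356 with the 2 groups alone) passed in PBS over uninjured muscle, and C5ar1 did not pass in gel over uninjured muscle (adjusted p = 0.0685; 0.0203 with the 2 groups alone); uninjured libraries share only a number with the others. C5ar1 was not tested under the stricter filter or with halved counts. The causes were not tested. Depth limits C7 in injected muscle and C3ar1 and C5ar1 outside gel muscle, where libraries held 0 to 18 counts.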
